A study of Mus musculus with 8 samples.

Results

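This account covers 10 mouse genes of de novo fatty acid synthesis and its control, out of 22923 gene symbols in the deposited tables. They were taken by symbol: the citrate carrier gene Slc25a1, the enzyme genes Acly, Me1, Acaca, Acacb, Fasn and Elovl6, and the regulator genes Srebf1, Mlxipl and Thrsp. All 10 were found as a single row in each table, none was listed at 0, and all 10 were among the 10351 genes with at least 1 RPKM (reads scaled by transcript length and sequencing depth) in at least 1 group. The livers came from C57BL/6 mice that carried the Xbp1flox allele and served as controls, or from mice labelled Xbp1-/- whose Xbp1 was removed in the liver. Each genotype received regular chow or, for 4 weeks, a high-fat diet combined with a high-fructose corn syrup equivalent, which gives 4 groups, each named here by genotype and diet (flox chow, for example). Each group held 4 mice whose RNA was pooled into 2 libraries, and 1 RPKM value per gene and group was used here. No difference below could therefore be set against the variation of libraries or mice. Nothing in the sources used here names the Cre driver, the age or the sex.

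De novo lipogenesis turns carbohydrate carbon into fatty acids in the cytosol of hepatocytes. Citrate leaves the mitochondrion through the carrier encoded by Slc25a1, ATP citrate lyase (Acly) splits it into acetyl-CoA, and acetyl-CoA carboxylase makes malonyl-CoA, which fatty acid synthase (Fasn) extends to palmitate with reducing power that malic enzyme (Me1) helps to supply. The genes of this chain are switched on by SREBP1, the product of Srebf1 and a mediator of insulin, and by ChREBP, the product of Mlxipl and a sensor of sugar metabolites. XBP1, which acts in the unfolded protein response of the ER, has also been linked to lipogenesis in mouse liver.

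The tables summed to between 367414 RPKM (knockout high fat) and 513694 RPKM (flox chow). The median log2 change of all genes was -0.13 for knockout against flox on the high-fat diet, so that small differences with knockout high fat depend on the scaling between groups. Rescaling on the median ratio between groups moved that median by 0.14, and rescaling to equal sums without the 50 most abundant genes moved it by 0.25. Xbp1 itself was at 112 (chow) and 90.7 RPKM (high fat) in flox livers and at 44.2 and 34.1 RPKM in knockout livers, or 39.6% and 37.6% of flox. No source used here names the removed stretch of the gene, so this level does not measure the loss of the protein. Hepatocyte markers identified the tissue, with Ttr between 2904 and 5347 RPKM, although Alb was listed at 0 in all 4 groups and Serpina1a in 3 of them. An exact 0 can thus be a failed estimate. The summed RPKM of the 10 hepatocyte markers was 25981 (chow) and 23346 (high fat) in flox livers, and 17021 and 13029 in knockout livers. The last sum holds 1858 RPKM of Serpina1a, which was listed at 0 in the other groups. Apoa1 was the largest part, at 12127 and 11270.5 RPKM in flox livers and 7301 and 4793 RPKM in knockout livers. Hnf4a stood at 95.4 and 97.5 RPKM in flox livers and 87.0 and 72.2 RPKM in knockout livers.

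Markers of other cell types moved with the groups. The 8 cholangiocyte markers summed to 23.6 (chow) and 25.0 RPKM (high fat) in flox livers, and 46.3 and 118 RPKM in knockout livers. Spp1 alone gave 19.7 and 20.6 RPKM of these sums in flox livers and 39.4 and 103 RPKM in knockout livers, and Cftr and Krt7 were below 1 RPKM throughout. Given in the same order, 8 of 9 macrophage markers summed to 108 and 123 RPKM in flox livers and 108 and 170 RPKM in knockout livers, and the 8 stellate cell markers to 102 and 98.7 RPKM and to 129 and 166 RPKM. Dcn alone gave 86.7 and 80.0 RPKM of the stellate sums in flox livers and 108 and 130 RPKM in knockout livers. The 7 endothelial markers summed to between 61.2 and 70.0 RPKM, with Clec4g alone at 35.2 to 47.8 RPKM. With the diet in flox livers, Clec4g had a log2 change of -0.43. It was the 1 endothelial marker below 0 of 6 compared, and their median was 0.32. Of 6 red blood cell markers 2 were matched by symbol, with sums from 37.3 to 75.5 RPKM. The part of these cell types in the results below was not tested, and in bulk RNA fewer cells of a type and less RNA per cell cannot be told apart. Adipocytes express the same lipogenic chain. Of 9 adipocyte markers 5 were below 1 RPKM in all groups, among them Plin1 (at most 0.00700 RPKM), Adipoq (at most 0.0329 RPKM) and Lep, which was listed at 0 throughout. Fabp4 stood at 9.59 to 11.5 RPKM and Pparg at 7.004 to 13.8 RPKM. The sum of the 9 adipocyte markers, from 975 to 2756 RPKM, came almost wholly from Car3, a gene that hepatocytes also express, at 956 to 2737 RPKM. Cfd, another adipocyte marker, stood at 9.76 RPKM in flox high fat and at 0.533 RPKM or less in the other groups.

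Several of these genes are regarded as targets of SREBP1, and the bases upstream of their start sites are shown for the 4 genes with the largest summed absolute knockout changes, without bases in annotated exons. For Srebf1 1 of its 3 start sites is shown. The RefSeq table (GRCm38.p6) held 14 start sites for the 10 genes, 3 of them for Srebf1 and 2 each for Mlxipl and Me1. Capitals mark any match, on either strand, to TCACNCCAC (sterol regulatory element), CACGTG (E-box), CCAAT (NF-Y box), CCACG (part of the ER stress element), TGACGTG (XBP1 and ATF6 core) or AGGTCA (a nuclear receptor recognition sequence). CCACG can overlap both CACGTG and TGACGTG. The window for Srebf1 at chr11:60210472-60210721 (minus strand) precedes the most downstream of its start sites and lies inside the gene but outside its annotated exons. The window for Fasn at chr11:120824548-120824797 (minus strand) lies outside the annotated gene, and that for Acacb at chr5:114165268-114165508 (plus strand) lies inside the gene, without its last 9 bases, which are exonic. For Thrsp the 180 bases nearest the start site are annotated as exon, which leaves 70 bases at chr7:97417731-97417800 (minus strand).
Srebf1: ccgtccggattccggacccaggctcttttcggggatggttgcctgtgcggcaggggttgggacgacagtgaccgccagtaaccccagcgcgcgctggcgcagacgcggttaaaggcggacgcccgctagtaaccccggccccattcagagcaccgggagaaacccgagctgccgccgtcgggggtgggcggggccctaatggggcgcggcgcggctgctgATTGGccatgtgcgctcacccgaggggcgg
Thrsp: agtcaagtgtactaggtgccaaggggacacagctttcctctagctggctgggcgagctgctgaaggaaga
Fasn: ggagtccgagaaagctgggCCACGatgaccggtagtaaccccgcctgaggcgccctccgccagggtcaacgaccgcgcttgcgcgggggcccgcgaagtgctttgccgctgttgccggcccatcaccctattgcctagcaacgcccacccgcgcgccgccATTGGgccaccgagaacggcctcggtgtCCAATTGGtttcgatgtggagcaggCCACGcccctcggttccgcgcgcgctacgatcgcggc
Acacb: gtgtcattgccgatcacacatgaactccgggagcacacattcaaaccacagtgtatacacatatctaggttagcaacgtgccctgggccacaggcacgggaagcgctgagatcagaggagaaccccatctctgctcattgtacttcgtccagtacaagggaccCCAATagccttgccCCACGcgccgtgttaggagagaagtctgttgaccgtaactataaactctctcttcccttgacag

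The CCAAT box was found for all 4 genes. In the 250 bases before each start site, Fasn held 3 matches to it, of which 2 overlap in the palindrome shown, Thrsp held 2, both in the exonic bases not shown, and Srebf1 and Acacb held 1 each at the start sites shown. CCAAT was present before 8 of the 14 start sites of the 10 genes and before 33.8% of all 32851 start sites in the RefSeq table, or 35.4% of the 9574 start sites of genes that passed the minimum of 1 RPKM, as all 10 genes did. CCACG was present before 6 of 14, against 28.3% of all and 41.5% of those of genes past the minimum. Before Acacb the CCAAT match lay at bases -87 to -83 and CCACG at -73 to -69, both on the strand of the gene. The ER stress element as a whole was not searched for, so the counts do not speak to complete elements. The sterol regulatory element letters were present at 1 of 14 start sites, a downstream start of Mlxipl, against 1.05% of all and 1.2% past the minimum, and CACGTG at 2 of 14, those of Slc25a1 and of the upstream start of Mlxipl, against 6.02% and 8.52%. AGGTCA preceded the start sites of Acly and Elovl6 (2 of 14, against 14% and 11.6%), and TGACGTG none of them (1.65% and 2.1%). A match is a run of letters in a short window and is not evidence of a bound site. Variants of these letters were not searched for, so a missing match does not show that a sterol regulatory element or E-box is absent.

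RNA levels of the 10 genes spanned a wide range within every group, and RPKM allows comparison between genes because it is scaled by transcript length. In flox chow Thrsp was the highest at 484 RPKM and Acacb the lowest at 7.92 RPKM. Thrsp ranked first and Acacb last in all 4 groups, and Acaca and Elovl6 were next to last and eighth in each. The middle ranks shifted: Srebf1 was the fourth of the 10 in flox chow, the second in flox high fat, the fifth in knockout chow and the sixth in knockout high fat. In sum the 7 genes of the carrier and the enzymes stood at 410 RPKM (chow) and 273 RPKM (high fat) in flox livers, and 267 and 246 RPKM in knockout livers. The other 3 groups lay between 246 and 273 RPKM, below flox chow. All 10 genes together made up 0.198% (chow) and 0.188% (high fat) of the summed RPKM in flox livers, and 0.118% and 0.135% in knockout livers.

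**Figure D1:**
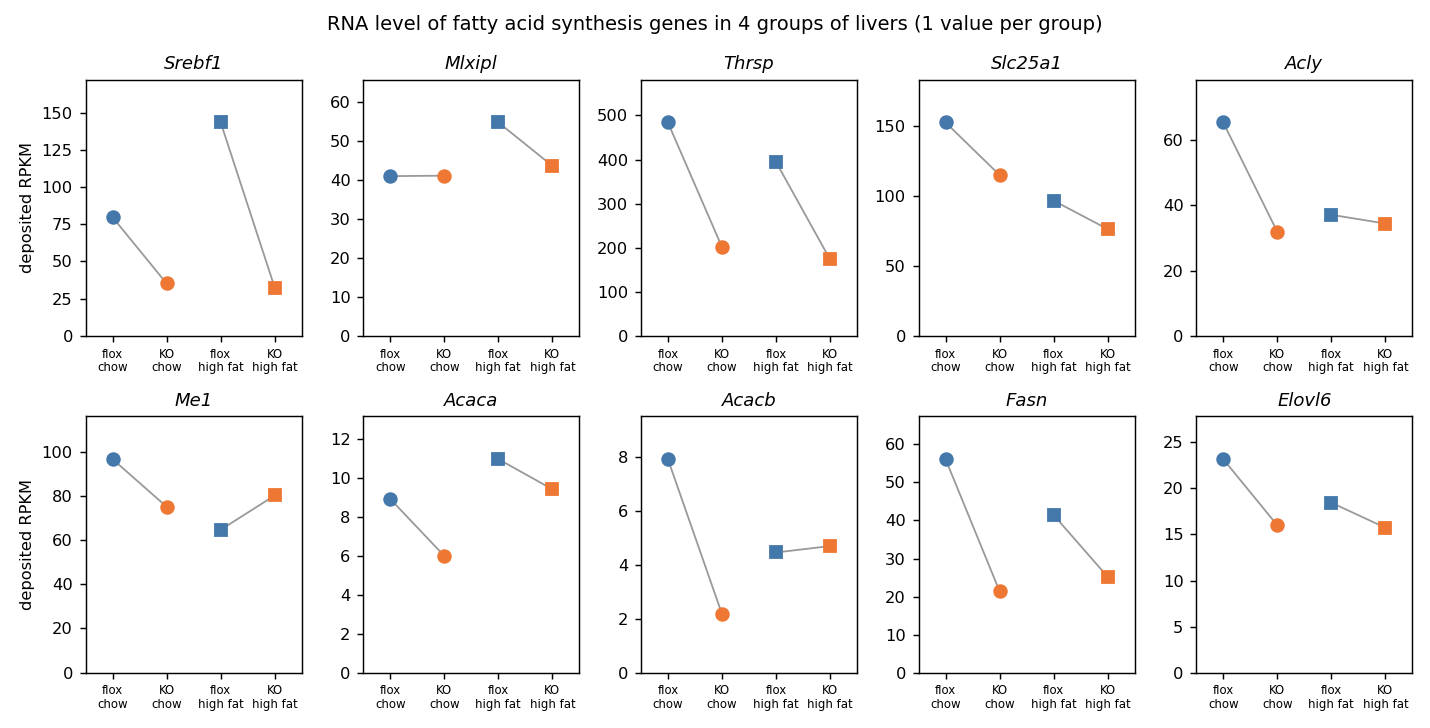
Deposited RPKM of each gene (vertical axes, each starting at 0) in flox (blue) and knockout (KO, orange) livers on chow (circles) and the high-fat diet (squares), 1 value per group, with grey lines joining the genotypes on the same diet. Flox chow is the highest group for Thrsp, Slc25a1, Acly, Me1, Acacb, Fasn and Elovl6, and flox high fat for Srebf1, Mlxipl and Acaca.

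Of the regulators, Srebf1 differed most between the groups. Srebf1 (chromosome 11, 60199089 to 60222581, minus strand, GRCm38) stood at 79.7 RPKM (chow) and 143 RPKM (high fat) in flox livers, and 35.2 and 32.4 RPKM in knockout livers. Both knockout groups lay below both flox groups, and the highest group was flox high fat. Knockout livers had 44.2% of the flox level on chow and 22.6% on the high-fat diet, log2 changes of -1.16 and -2.11 on the log2(RPKM + 1) scale. A log2 change of at least 1 in size is called here a rise or a fall, so Srebf1 fell on both diets. Several of the 8 alternative settings leave its value unchanged. Over those that do not, the value nearest to 0 was -1.01 on chow, just past the threshold, and -1.81 on the high-fat diet. Its level on the high-fat diet was 180% of the chow level in flox livers (log2 difference 0.84, short of the threshold) and 91.9% in knockout livers (-0.12, of the other sign under both rescalings). Over the 4 groups its log2 range was 2.11, and 0.727% of genes had a range as large. The RPKM value covers all Srebf1 transcripts, so the isoforms SREBP1a and SREBP1c are not separated. An exon of Rai1 on the opposite strand shares 109 bases with Srebf1 in GENCODE M21, and no source used here says whether reads were counted by strand. Mlxipl, Me1 and Elovl6 overlap antisense exons of 235, 30 and 34 bases in the same way.

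Mlxipl, which encodes ChREBP, showed no such drop. Mlxipl (chromosome 5, 135089890 to 135138382, plus strand) stood at 40.9 RPKM (chow) and 54.7 RPKM (high fat) in flox livers, and 41.0 and 43.5 RPKM in knockout livers. The 2 chow groups were nearly equal (log2 change 0.00), and the highest value was again that of flox high fat. On the high-fat diet knockout livers had 79.6% of the level in flox livers (log2 change -0.32, and -0.02 after rescaling to equal sums). Its log2 range over the groups was 0.41, the smallest of the 10 genes, and 42.2% of all genes had a range as large. Within each group, where scaling plays no part, the ratio of Srebf1 to Mlxipl was 1.95 (chow) and 2.62 (high fat) in flox livers, and 0.858 and 0.743 in knockout livers, so that the order of the pair was opposite in the genotypes.

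Thrsp encodes the small nuclear and cytosolic protein Spot 14, which responds to thyroid hormone and carbohydrate and supports lipogenesis. Thrsp (chromosome 7, 97412938 to 97417730, minus strand) stood at 484 RPKM (chow) and 394 RPKM (high fat) in flox livers, and 202 and 173 RPKM in knockout livers. The genotype gap was of similar size on both diets: knockout livers had 41.7% of the flox level on chow and 44.0% on the high-fat diet. The log2 changes of -1.26 and -1.18 both counted as falls, the second of them not after rescaling to equal sums (-0.88). The interaction, which is the knockout change on the high-fat diet minus that on chow, was 0.08 for Thrsp, where it was -0.96 for Srebf1. Mid1ip1, a relative of Thrsp that encodes a partner of Spot 14 that acts on acetyl-CoA carboxylase, stood at 40.8 RPKM (chow) and 27.0 RPKM (high fat) in flox livers, and 24.2 and 13.8 RPKM in knockout livers.

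On chow, 5 of the 10 genes fell in knockout livers and none rose. Of all 10322 genes compared, 1.37% fell and 0.252% rose. The 5 were the regulators Srebf1 and Thrsp and the enzyme genes Acacb, Fasn and Acly. Of the 10 genes 9 lay below 0, where 54.2% of all genes did (45.8% lay above), and the median log2 change was -0.76, against -0.02 over all genes. Each of the 7 carrier and enzyme genes was lower in knockout chow than in flox chow, by log2 changes from -0.36 to -1.49.

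Acacb, the gene of the acetyl-CoA carboxylase at the outer mitochondrial membrane whose malonyl-CoA restrains fatty acid entry into mitochondria, differed most on chow. Acacb (chromosome 5, 114146535 to 114250761, plus strand) stood at 7.92 RPKM (chow) and 4.46 RPKM (high fat) in flox livers, and 2.18 and 4.69 RPKM in knockout livers. Knockout chow was the lowest group, at 27.5% of flox chow, and the 2 high-fat groups lay close together between the chow groups. The log2 change on chow was -1.49; at these low levels it depended on the pseudocount and was -0.85 with 5 RPKM added. Acaca, the gene of the cytosolic carboxylase that feeds fatty acid synthase (chromosome 11, 84129672 to 84401651, plus strand), stood at 8.93 RPKM (chow) and 10.98 RPKM (high fat) in flox livers, and 6.00 and 9.43 RPKM in knockout livers. Its change on chow was -0.50, short of the threshold, and in each genotype the high-fat value was the higher of the pair. The ratio of Acaca to Acacb within a group was 1.13 (chow) and 2.46 (high fat) in flox livers, and 2.76 and 2.01 in knockout livers, lowest in flox chow.

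Fasn and Acly had their highest level in flox chow as well. Fasn (chromosome 11, 120805846 to 120824547, minus strand; upstream sequence above) stood at 56.1 RPKM (chow) and 41.4 RPKM (high fat) in flox livers, and 21.4 and 25.2 RPKM in knockout livers. Both knockout groups were below both flox groups, with knockout at 38.1% of flox on chow (log2 change -1.35) and at 60.7% on the high-fat diet (-0.70, no fall). Acly (chromosome 11, 100476353 to 100528000, minus strand) stood at 65.3 RPKM (chow) and 37.1 RPKM (high fat) in flox livers, and 31.9 and 34.4 RPKM in knockout livers. Here 1 group, flox chow, stood above the other 3, which lay within 31.9 to 37.1 RPKM. The log2 change of Acly on chow was -1.01, just past the threshold, and was -0.99 and -0.87 after the rescalings and -0.93 with a pseudocount of 5 RPKM.

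Me1, Slc25a1 and Elovl6 passed the threshold on neither diet. Me1 (chromosome 9, 86581371 to 86695953, minus strand) stood at 96.6 RPKM (chow) and 64.6 RPKM (high fat) in flox livers, and 75.0 and 80.1 RPKM in knockout livers, so knockout livers were lower on chow (-0.36) and higher on the high-fat diet (0.31). Slc25a1 (chromosome 16, 17925223 to 17928219, minus strand) stood at 152 RPKM (chow) and 96.5 RPKM (high fat) in flox livers, and 115 and 76.2 RPKM in knockout livers. For the carrier each high-fat group was below its chow group, and each knockout group below its flox group. Elovl6, whose enzyme elongates palmitate to stearate (chromosome 3, 129532355 to 129638495, plus strand), stood at 23.2 RPKM (chow) and 18.5 RPKM (high fat) in flox livers, and 16.0 and 15.7 RPKM in knockout livers. Its log2 change was -0.51 on chow and -0.22 on the high-fat diet, the second of the other sign after rescaling to equal sums.

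On the high-fat diet, 2 of the 10 genes fell in knockout livers, Srebf1 and Thrsp, and none rose. Of all 10327 genes compared, 1.86% fell and 1.07% rose; after the rescalings the shares were 1.18% and 0.855% for falls and 1.4% and 1.83% for rises. No enzyme gene reached the threshold: their log2 changes lay between -0.70 (Fasn) and 0.31 (Me1), with a median of -0.20 for the carrier and enzymes, close to the -0.13 of all genes. Below 0 were 8 of the 10 genes, where 70.1% of all genes were (29.9% above), and 5 of 10 after rescaling to equal sums. The genes of the other sign under that rescaling were Acly, Acaca and Elovl6, from -0.11, -0.20 and -0.22 to 0.19, 0.08 and 0.07. Cholangiocyte, macrophage and stellate markers were at their highest sums in knockout high fat, as given above.

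**Figure D2:**
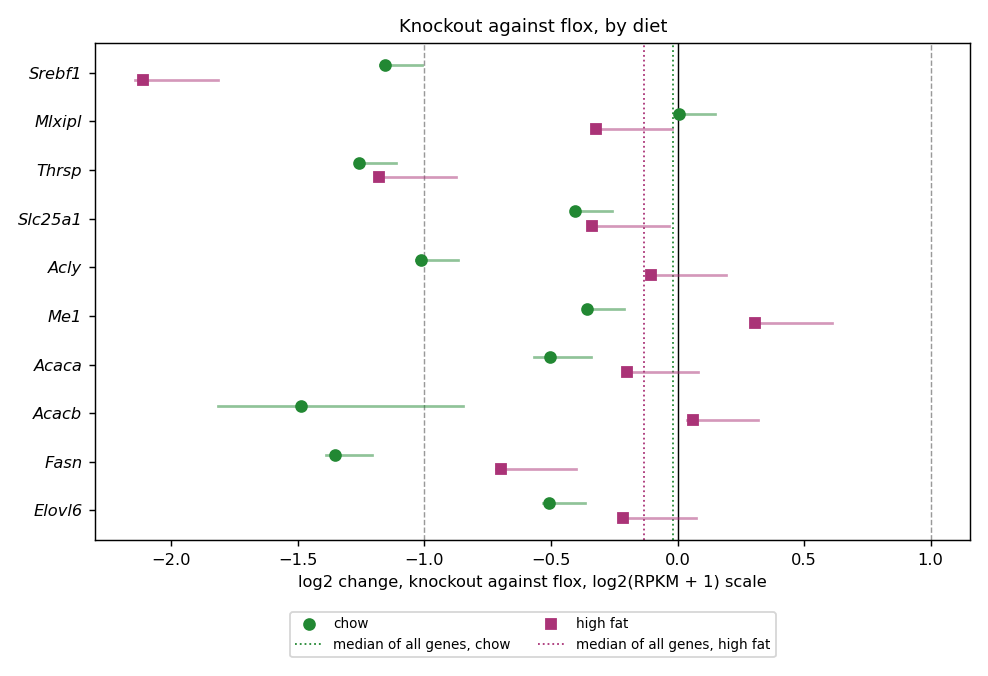
Log2 change of knockout against flox livers for each gene (horizontal axis, log2(RPKM + 1) scale) on chow (green circles) and on the high-fat diet (purple squares), with bars from the lowest to the highest value over the 8 alternative settings, dashed lines at -1 and 1 and dotted lines at the median of all genes. Srebf1 lies at -1.16 and -2.11, Acacb moves from -1.49 on chow to 0.06, and Acly, Acaca and Elovl6 on the high-fat diet have bars that cross 0.

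The 2 genotype comparisons use different groups, and their difference gives the interaction. For all 7 carrier and enzyme genes it was above 0, from 0.07 (Slc25a1) to 1.55 (Acacb), with a median of 0.65. For Srebf1 it was -0.96 and for Mlxipl -0.33, so that these 2 regulators and the enzymes lay on opposite sides. Acacb alone of the 10 passed the threshold (0.659% of all genes rose by this measure and 0.572% fell, and 0.925% and 0.998% rose after the rescalings). The Acacb value was 0.88 with a pseudocount of 5 RPKM, which left no call. Acly, at 0.91, passed it after either rescaling (1.05 and 1.06). Above 0 were 8 of the 10 genes, against 32.1% of all genes (67.9% below). With 1 value per group the interaction could not be tested.

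In flox livers none of the 10 genes passed the threshold with the high-fat diet, as for most genes (0.426% fell and 0.213% rose, 0.333% and 0.295% after rescaling to equal sums). Within that limit Srebf1, Mlxipl and Acaca were higher on the high-fat diet (0.84, 0.41 and 0.27) and the other 7 were lower, with Acly (-0.80), Acacb (-0.71), Slc25a1 (-0.65) and Me1 (-0.57) the furthest. These signs held under both rescalings, the only alternative settings that could change a sign here. Below 0 were 7 of the 10 genes and 52.5% of all genes (47.5% above), and the median was -0.37, against -0.01 over all genes. Srebf1 thus lay above 0 in flox livers and 6 of the 7 carrier and enzyme genes below it. This does not extend to the steps after palmitate, described below. Of 16 such genes compared, 7 lay below 0 with the diet in flox livers. Scd3 is counted among the 16 although it is not read on that diet. Elovl3 fell (-1.03), from 60.5 to 29.1 RPKM, and Scd2 rose (1.34), from 0.723 to 3.36 RPKM. Elovl5 (0.90), Gpam (0.70) and Fads2 (0.67) lay above 0 with no call.

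In knockout livers the diet went with small differences for most of the 10 genes. None passed the threshold, while 0.794% of all genes fell and 0.668% rose (0.446% and 1.27% after rescaling to equal sums). Acacb (0.84) and Acaca (0.57) were higher on the high-fat diet, and Slc25a1 (-0.59) was lower. Fasn (0.23), Acly (0.11), Me1 (0.09) and Mlxipl (0.08) stood slightly above 0, and Srebf1 (-0.12), Thrsp (-0.22) and Elovl6 (-0.02) below it, although these last 3 turned positive under rescaling to equal sums. The median of the 10 was 0.09, against -0.11 over all genes, and 4 of 10 were below 0, where 66.4% of all genes were (33.6% above). Acacb in knockout high fat was 216% of its level in knockout chow, and passed the threshold after rescaling to equal sums (1.08) and with a pseudocount of 0.1 RPKM (1.07).

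**Figure D3:**
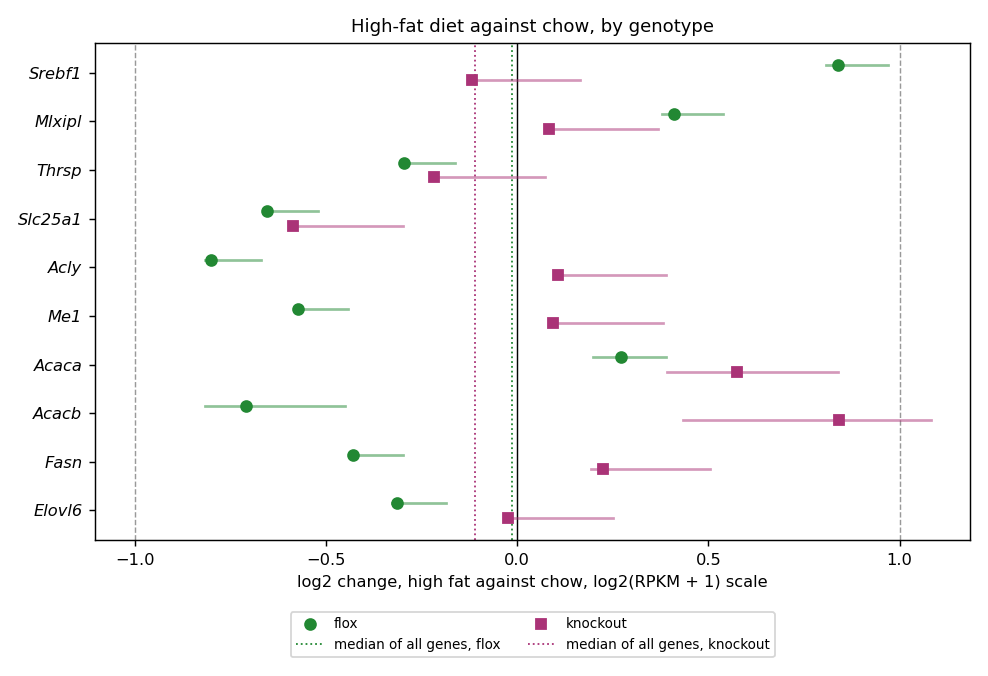
Log2 change of the high-fat diet against chow for each gene (horizontal axis, log2(RPKM + 1) scale) in flox (green circles) and knockout livers (purple squares), with bars from the lowest to the highest value over the 8 alternative settings, dashed lines at -1 and 1 and dotted lines at the median of all genes. In flox livers Srebf1 lies at 0.84 and Acly at -0.80, while in knockout livers Srebf1, Thrsp and Elovl6 have bars that cross 0.

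Ratios to Srebf1 within a group are free of the scaling between groups. The ratio of Fasn to Srebf1 was 0.704 (chow) and 0.289 (high fat) in flox livers, and 0.607 and 0.778 in knockout livers. For Acly the ratio was 0.819 (chow) and 0.258 (high fat) in flox livers, and 0.905 and 1.06 in knockout livers. Flox high fat was thus the lowest group for both, and it was the lowest for each of the other genes set against Srebf1 as well. Srebf1, the shared divisor, was highest in flox high fat (143 RPKM, against 79.7 RPKM in flox chow). A gene at the same level in all groups would thus also be lowest there. The median log2 change of all genes with the diet in flox livers was -0.01. Thrsp was the closest to constant outside flox high fat, at 6.08 in flox livers on chow and at 5.73 (chow) and 5.36 (high fat) in knockout livers, against 2.75 in flox high fat. Srebf1 against its relative Srebf2, which drives cholesterol synthesis, stood at 8.71 (chow) and 27.3 (high fat) in flox livers, and 4.91 and 5.89 in knockout livers. The flox high fat value combined the highest Srebf1 with the lowest Srebf2 level, 5.25 RPKM.

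**Figure D4:**
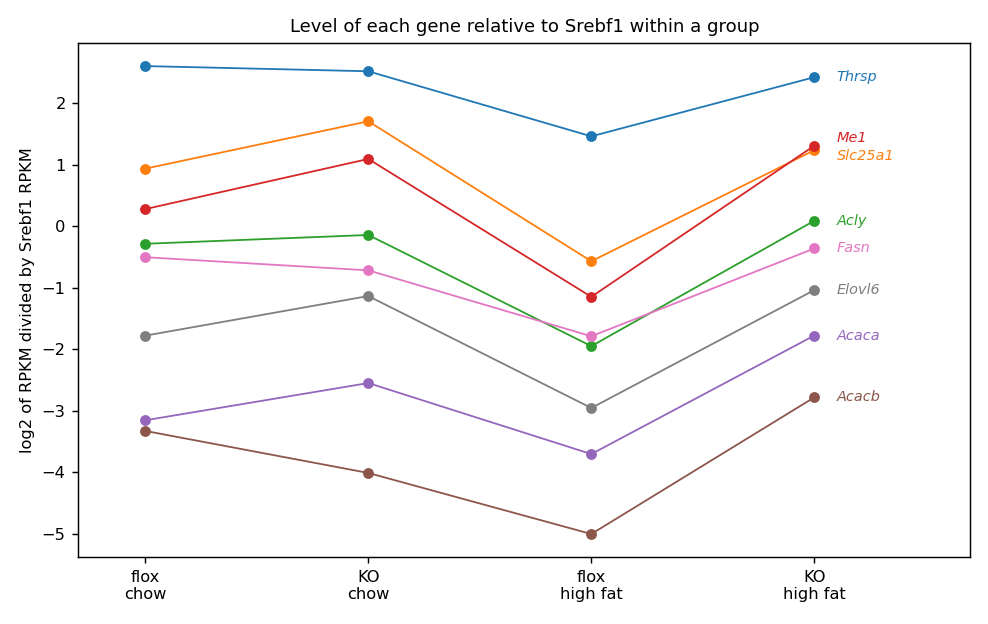
Log2 of the RPKM of each gene divided by the RPKM of Srebf1 in the same group (vertical axis) for flox and knockout (KO) livers on chow and the high-fat diet, 1 point per gene and group, with lines only to guide the eye. Flox high fat is the lowest point of every line, with Acly at a ratio of 0.258 there and 1.06 in knockout high fat. Srebf1, the divisor of every ratio, was itself highest in flox high fat.

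Genes around the chain were taken from 8 lists and read against the same background. Their values on the high-fat diet move up with the rescalings, as do those of all genes (by 0.14 and 0.25 at the median), so calls there near -1 depend on the scaling. Of 15 genes that supply citrate, acetyl-CoA or NADPH, 1 fell on chow, Acss2, which makes acetyl-CoA from acetate (93.9 RPKM in flox chow and 41.0 in knockout chow, -1.18), and the list median was -0.11. On the high-fat diet none of the 15 passed the threshold (median -0.41), with Pgd of the pentose phosphate pathway at 0.81 and Aco1, cytosolic aconitase, at -0.76. In flox livers Acss2 alone of the list fell with the diet (28.9 RPKM in flox high fat, -1.67). Its pattern of a flox chow level above the other 3 groups, which lay between 28.9 and 41.0 RPKM, is the shape also given for Acly.

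Among 19 genes of SREBP processing and partner factors, 1 fell on each diet, and both were Insig genes. Insig1, which retains the SREBP complex in the ER, stood at 120.4 RPKM (chow) and 80.8 RPKM (high fat) in flox livers, and 53.5 and 43.0 RPKM in knockout livers, and fell on chow (-1.16). Insig2, its relative, stood at 29.9 (chow) and 52.8 RPKM (high fat) in flox livers, and 28.6 and 22.6 RPKM in knockout livers, and fell on the high-fat diet (-1.19). Insig2 shared with Srebf1 its highest value in flox high fat. The other 17 stayed short of the threshold on both diets, among them Scap, the escort of SREBP (-0.43 and -0.46), Mbtps1, its protease (-0.08 and -0.32), and Nr1h3, the liver X receptor gene (-0.23 and -0.45). The list medians were -0.08 on chow and -0.32 on the high-fat diet.

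None of 15 insulin signalling genes passed the threshold in either genotype comparison (medians -0.06 and -0.24). Of these, Rptor was the furthest below 0 on the high-fat diet (-0.63), and Irs2, an insulin receptor substrate, the furthest above (0.47). Of 14 genes linked to ChREBP 12 were measured above the minimum, and 1 rose on each diet, the hormone gene Fgf21 (1.39 and 1.28). Fgf21 stood at 0.174 RPKM (chow) and 1.24 RPKM (high fat) in flox livers, and 2.07 and 4.47 RPKM in knockout livers. At these low levels the size of its change depends on the pseudocount. The list median was 0.21 on chow and -0.09 on the high-fat diet. Pklr, liver pyruvate kinase and a classic ChREBP target, stood at 80.6 RPKM (chow) and 103 RPKM (high fat) in flox livers, and 63.7 and 100.5 RPKM in knockout livers, with no call.

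Steps after palmitate held the lowest values on chow. Of 17 genes of desaturation, activation and esterification, 2 fell and 1 rose on chow: Dgat2, a gene of triglyceride synthesis (-2.65), and the desaturase gene Scd1 (929 RPKM in flox chow and 264 in knockout chow, -1.81) fell, and Scd2 (1.27) rose. On the high-fat diet Dgat2 (-2.32) and Agpat2 (-1.50), an acyltransferase gene, fell and none rose. In flox high fat Scd1 was listed at 0, where the related gene Scd3 was listed at 6.62 RPKM. Neither gene is therefore read on that diet, and the value of Scd3 (-2.91) is not counted as a fall. Fads1 and Fads2, the desaturases of polyunsaturated fatty acids, lay at -0.95 and -0.84 on chow and -0.54 and -0.44 on the high-fat diet. The list medians were -0.33 and, over 16 genes with Scd3 among them, -0.52.

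Of 12 genes that act on acetyl-CoA carboxylase or malonyl-CoA, none passed the threshold on chow (median -0.05) and 1 rose on the high-fat diet, Trib3 (1.19), which encodes a pseudokinase (median -0.27). Hlcs, whose enzyme attaches biotin to the carboxylases, lay at -0.54 and -0.59, and Nr0b2, which encodes the repressor SHP, at -0.46 and -0.98. The separate mitochondrial fatty acid synthesis pathway showed no call on either diet among its 6 measured genes (medians -0.02 and -0.24), with its condensing enzyme gene Oxsm at -0.09 and -0.56. Fasn per Oxsm within a group was 7.74 (chow) and 4.67 (high fat) in flox livers, and 3.17 and 4.42 in knockout livers, so the cytosolic synthase and its mitochondrial counterpart were furthest apart in flox chow.

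Cholesterol synthesis and uptake, the SREBP2 branch, served as a reference. On chow its 16 genes lay at a median of -0.71, near the -0.76 of the 10 fatty acid synthesis genes. On the high-fat diet 4 of the 16 rose, Sqle (2.16), Idi1 (1.79), Nsdhl (1.22) and Cyp51 (1.18), where 1.07% of all genes did. The median was 0.57, against -0.27 for the 10 fatty acid synthesis genes. The latter was -0.11 and 0.03 after the rescalings, while that of the 16 is given under the deposited scaling only. In flox livers 14 of 16 fell with the diet (median -2.06), where none of the 10 fatty acid synthesis genes and 0.426% of all genes did. In knockout livers all 16 lay below 0 with the diet, where 66.4% of all genes did. Of the 16, 5 fell there (median -0.75), against 0.794% of all genes. Beside these medians stand those of all genes, -0.02 on chow and -0.13 on the high-fat diet. For the diet they were -0.01 in flox livers and -0.11 in knockout livers.

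**Figure D5:**
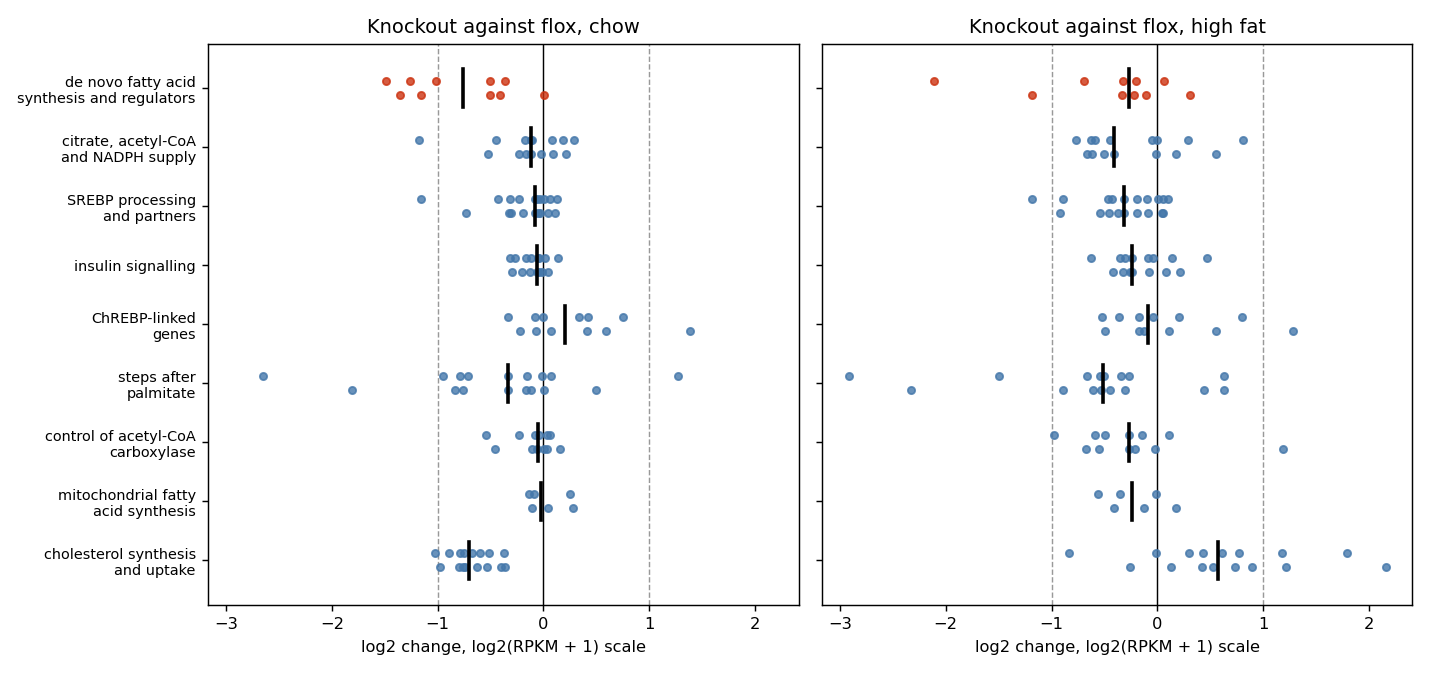
Log2 change of knockout against flox livers (horizontal axes, log2(RPKM + 1) scale) on chow (left) and the high-fat diet (right) for the 10 fatty acid synthesis genes (red) and 8 lists of surrounding genes (blue), 1 point per gene, with black bars at list medians and dashed lines at -1 and 1. The fatty acid synthesis genes have a median of -0.76 on chow and -0.27 on the high-fat diet, and the cholesterol list -0.71 and 0.57.

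The profile over the 4 groups was compared with those of 6085 genes that reached 5 RPKM in at least 1 group and were listed at 0 in none, by the Euclidean distance of centred log2(RPKM + 1) values. Closest to Srebf1 were Inmt, an indolethylamine methyltransferase gene (distance 0.38; 511 RPKM (chow) and 748 RPKM (high fat) in flox livers, and 268 and 228 RPKM in knockout livers), Wfdc2 (0.40) and Paqr7 (0.45). Closest to Fasn were Tapbp (0.13), Creld2 (0.14) and Tram1 (0.14), at 64.9 (chow) and 49.98 RPKM (high fat) in flox livers and 28.0 and 29.0 RPKM in knockout livers. None of the other 9 fatty acid synthesis genes was among the 3 closest to either. With 4 points per profile such likeness is a description of these groups only.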

How the data were processed

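Liver RNA of 8 libraries was sequenced. The authors deposited 4 tables, each with 1 RPKM value per gene for a group, per the file headers; how the 2 libraries of a group were combined and scaled is not given in the sources used here. Per the submitters' processing notes, TopHat2 2.0.7, Cuffdiff 2.1.1 and mm10 were used. Each table was assigned by the part of the sample titles in its name. Rows of the 158 repeated symbols were summed. Depth is unknown: at best 16.5% to 19.2% of low values times transcript length lay within 0.05 of a step of whole reads. The log2 change was taken with a pseudocount of 1 RPKM over genes with at least 1 RPKM in a group; a gene at 0 in a group did not enter comparisons with that group. A change of at least 1 was called, with no test. Coordinates came from GENCODE M21 on GRCm38, the assembly mm10 denotes, and start sites from RefSeq. From each list up to 4 genes with the largest change were eligible to be named; for Srebf1 and Fasn the 3 closest profiles were. Further genes of the lists were named for their role after their values were seen. The genes, lists and motifs were chosen with earlier results of these data known. Python 3.11.15, numpy 2.4.6, pandas 2.3.3 and matplotlib 3.10.9 were used, and the steps were tested on simulated data. The 8 alternatives were pseudocounts of 0.1 and 5 RPKM, no filter, a filter of 5 RPKM, a 1.5-fold threshold, the highest of repeated rows and 2 rescalings.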

Additional observations from a re-analysis of the deposited data

Results flagged for a closer look

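Some genes lay on opposite sides of 0 in the groups of a contrast, under the deposited scaling and both rescalings. With the high-fat diet, Acacb was lower in flox livers (-0.71) and higher in knockout livers (0.84), a difference of 1.55. Acly (-0.80 and 0.11, difference 0.91), Me1 (-0.57 and 0.09, difference 0.67) and Fasn (-0.43 and 0.23, difference 0.65) showed the same order. For knockout against flox, Acacb was at -1.49 on chow and 0.06 on the high-fat diet, and Me1 at -0.36 and 0.31. Mlxipl had values of 0.00 and -0.32 (difference -0.33), of which the first is too near 0 to give a direction. The 0.06 of Acacb, and the 0.09 of Me1 and 0.11 of Acly with the diet in knockout livers, are also near 0. With 1 value per group none of these differences was tested.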

How the results depend on the processing

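No paired analysis was possible because the deposited values carry no replicate numbers. For the same reason no library could be left out. The number of the 10 genes past the threshold for knockout against flox on chow was 3 in place of 5 with a pseudocount of 5 RPKM and 4 after either rescaling, which ended the call of Acly. On the high-fat diet it was 1 in place of 2 after rescaling to equal sums and 3 with a 1.5-fold threshold. With a 1.5-fold threshold it was 4 in place of 0 for the diet in flox livers, 2 in place of 0 for the diet in knockout livers and 5 in place of 1 for the interaction. For the diet in knockout livers it was 1 in place of 0 with a pseudocount of 0.1 RPKM and after rescaling to equal sums. The interaction count was 0 in place of 1 with a pseudocount of 5 RPKM and 2 after either rescaling. No called change reversed its sign, although for these 10 genes the filters, the threshold and the choice of repeated row cannot change a value. Over all genes, knockout against flox gave 141 falls and 26 rises on chow, with 87 to 396 and 9 to 113 over the alternatives, and 192 and 111 on the high-fat diet, with 90 to 860 and 37 to 330. The diet gave 44 falls and 22 rises in flox livers, with 29 to 173 and 11 to 127, and 82 and 69 in knockout livers, with 47 to 485 and 30 to 277. For the interaction, 59 genes were below the threshold and 68 above, with 30 to 313 and 38 to 239. Without values per library, the spread between mice and pools limits every comparison and is unknown.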

Other observations

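Profiles closest to the remaining genes were looked at after their values were seen. Xbp1 was the third closest of 6085 genes to Thrsp (distance 0.17), after Tmem208 (0.11) and F2, the prothrombin gene (0.15; 666 RPKM (chow) and 612 RPKM (high fat) in flox livers, and 288 and 268 RPKM in knockout livers). Gm2a was the closest to both Acly (0.18) and Acacb (0.40), at 30.8 RPKM (chow) and 18.9 RPKM (high fat) in flox livers, and 13.4 and 16.4 RPKM in knockout livers. Next closest to Acacb were Cyp2c68 (0.47) and Hspa5, the gene of the ER chaperone BiP (0.48). Hspa5 stood at 204 RPKM (chow) and 181 RPKM (high fat) in flox livers, and 99.8 and 136 RPKM in knockout livers. It was thus lower in knockout livers on both diets, which Acacb was not on the high-fat diet. Tecr, whose enzyme carries out the last step of fatty acid elongation, was the second closest to Slc25a1 (0.06), at 226.5 RPKM (chow) and 151 RPKM (high fat) in flox livers, and 170.2 and 115 RPKM in knockout livers.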
